A study of Mus musculus with 23 samples.

Results

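The killing machinery of cytotoxic T cells was followed here through 7 genes: the granzymes Gzma, Gzmb, Gzmk and Gzmm, the pore-forming protein perforin (Prf1), the granule membrane protein Nkg7 and Fas ligand (Fasl). They were taken from the 21900 genes of the deposited table by their symbols, and all 7 passed the filter on low counts in both cell types.

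Cytotoxic lymphocytes kill by releasing lytic granules at the contact with a target cell. Perforin forms pores in the target's membranes, and granzymes, which are serine proteases, pass through and cleave proteins inside the target. Nkg7 is a membrane protein of these granules that takes part in their release. Fas ligand works by a separate route: it is displayed on the surface of the lymphocyte, engages the receptor Fas on the target and starts a death signal there, and it is made by CD4 as well as CD8 T cells.

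The study transferred 2 kinds of T cell with a transgenic receptor for an ovalbumin (OVA) peptide into wild-type C57BL/6 mice: OT-I, of the CD8 lineage, and OT-II, of the CD4 lineage. On day 1 after transfer the mice received 1 ug of A8B1-OVA, free OVA at the molar equivalent of that dose, free OVA at a higher dose, or saline, and on day 5 the 2 cell types were sorted by flow cytometry from pooled spleens and lymph nodes. The title of the series speaks of antigen targeted to erythrocytes and of T cell anergy; neither the nature of A8B1 nor the sorting markers that separated transferred from host T cells are known from the labels. Each of the 23 libraries holds RNA pooled from 3 mice, with n = 3 libraries in each of the 8 groups except OT-II with higher-dose OVA, where n = 2 (replicates 2 and 3).

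Polyadenylated RNA was measured, and each library holds between 26.6 M and 73.5 M counts. Levels are in CPM, each gene's count scaled to a library of 1 M counts; a count of 0 allows a level of up to 0.0408 to 0.113 CPM, from counting error alone (3 counts in a library). In OT-I libraries the CD8 lineage genes Cd8a and Cd8b1 summed to 2380 to 4130 CPM, against 24.8 to 59.8 CPM in OT-II libraries. The library labelled OT-I with higher-dose OVA replicate 1 stood apart in CD4 RNA: its Cd4 level was 163 CPM, against 0.341 to 16.3 CPM in the other OT-I libraries. OT-I with molar-equivalent OVA replicate 2 stood apart in markers of other blood cells, with natural killer (NK) cell markers at 138 CPM (median of OT-I libraries 27.4 CPM), B cell markers at 587 CPM, myeloid markers at 726 CPM and erythroid genes at 628 CPM. Summed myeloid markers were also raised in OT-I with saline replicate 1 (292 CPM) and OT-II with saline replicate 1 (403 CPM), and B cell markers in OT-II with molar-equivalent OVA replicate 3 (202 CPM). Results that rest on these 5 libraries are given with and without them, a setting chosen after the data were seen.

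The starts of 5 genes that carry some of the differences described below are shown here: Gzma, Gzmb, Gzmk and Gzmm rose in OT-I cells given higher-dose OVA, whereas Prf1 fell with A8B1-OVA. Fasl and Nkg7 were also called in some comparisons, and the matches in their windows are given without the sequence. RefSeq has 2 windows for Gzmm, of which 1 is shown. Each line gives the 250 bases that end just before the RefSeq start of transcription (build GRCm38.p6), written 5′ to 3′ on the strand of the gene. Capitals mark matches, on either strand, to short letter patterns known for transcription factors of T cells.

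Gzma chr13:113100982-113101231 (minus strand): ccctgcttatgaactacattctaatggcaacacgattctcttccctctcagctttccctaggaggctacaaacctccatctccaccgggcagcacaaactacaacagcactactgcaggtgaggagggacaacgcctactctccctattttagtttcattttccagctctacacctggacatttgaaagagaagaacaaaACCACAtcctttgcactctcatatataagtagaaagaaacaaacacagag

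Gzmb chr14:56262335-56262584 (minus strand): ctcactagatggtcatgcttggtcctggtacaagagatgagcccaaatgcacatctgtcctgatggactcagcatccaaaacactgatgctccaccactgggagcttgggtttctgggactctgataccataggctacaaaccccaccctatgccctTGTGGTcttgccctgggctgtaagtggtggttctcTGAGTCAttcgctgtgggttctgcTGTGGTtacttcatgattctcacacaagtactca

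Gzmk chr13:113180966-113181215 (minus strand): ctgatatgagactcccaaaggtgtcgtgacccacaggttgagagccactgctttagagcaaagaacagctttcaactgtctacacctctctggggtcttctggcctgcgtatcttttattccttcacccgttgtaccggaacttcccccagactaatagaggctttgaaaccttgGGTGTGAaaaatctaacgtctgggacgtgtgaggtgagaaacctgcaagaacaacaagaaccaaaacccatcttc

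Gzmm chr10:79688770-79689019 (plus strand): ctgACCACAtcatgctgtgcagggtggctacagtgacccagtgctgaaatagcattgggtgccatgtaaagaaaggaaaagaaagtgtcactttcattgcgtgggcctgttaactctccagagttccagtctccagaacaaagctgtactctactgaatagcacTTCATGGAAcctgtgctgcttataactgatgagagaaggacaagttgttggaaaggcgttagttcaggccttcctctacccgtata

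Prf1 chr10:61297586-61297835 (plus strand): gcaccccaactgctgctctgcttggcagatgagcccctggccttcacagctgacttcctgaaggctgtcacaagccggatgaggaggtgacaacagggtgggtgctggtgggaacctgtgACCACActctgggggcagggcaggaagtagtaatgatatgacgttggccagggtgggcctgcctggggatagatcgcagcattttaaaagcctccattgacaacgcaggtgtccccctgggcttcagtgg

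The capitals stand for 5 searched patterns. The Runx pattern TGTGGT, for the family of Runx3, occurred in Gzma at -50 (counted from the start of transcription), in Gzmb at -93 and -34, in Gzmm at -247 and in Prf1 at -130. It is found in 14% of all 32851 windows of this length in the RefSeq table. The AP-1 pattern TGANTCA, for Fos and Jun dimers, was found in Gzmb at -58 and is in 6.75% of all windows. The T-box pattern GGTGTGA, for the factors T-bet (gene Tbx21) and Eomes, lay in Gzmk at -75 and is in 3.33% of windows. The STAT pattern TTCNNNGAA lay in Gzmm at -86 and is in 7.02% of windows, and the cyclic AMP response element TGACGTCA, present in 1.55% of windows, was in none of the 5. The window of Nkg7 held a Runx (-83), a T-box (-13) and a STAT match (-220), and that of Fasl held no match to the 5 patterns. No 2 of the printed patterns overlap. These are matches of letters and not measured binding sites, and the 4 granzyme windows share no single pattern.

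Of the 4 granzyme genes Gzma and Gzmk lie near each other on 1 chromosome, and Gzmb and Gzmm lie on others. In GENCODE M21 on GRCm38, Gzma is at chr13:113093825-113100981 and Gzmk at chr13:113171608-113225908, both on the minus strand. Gzmb is at chr14:56258838-56262260, Gzmm at chr10:79689020-79695261, Prf1 at chr10:61297833-61304680, Fasl at chr1:161780689-161788495 and Nkg7 at chr7:43437073-43438249. The longest annotated span of Gzmk overlaps Esm1 on the opposite strand, and since the strand of the libraries is not given, reads of the 2 genes cannot be told apart in the overlap. Gzmb shares 1.35% of its 31-base words with Gzmc and Prf1 shares 0.392% with other genes, and the other 5 members share none.

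**Figure D1:**
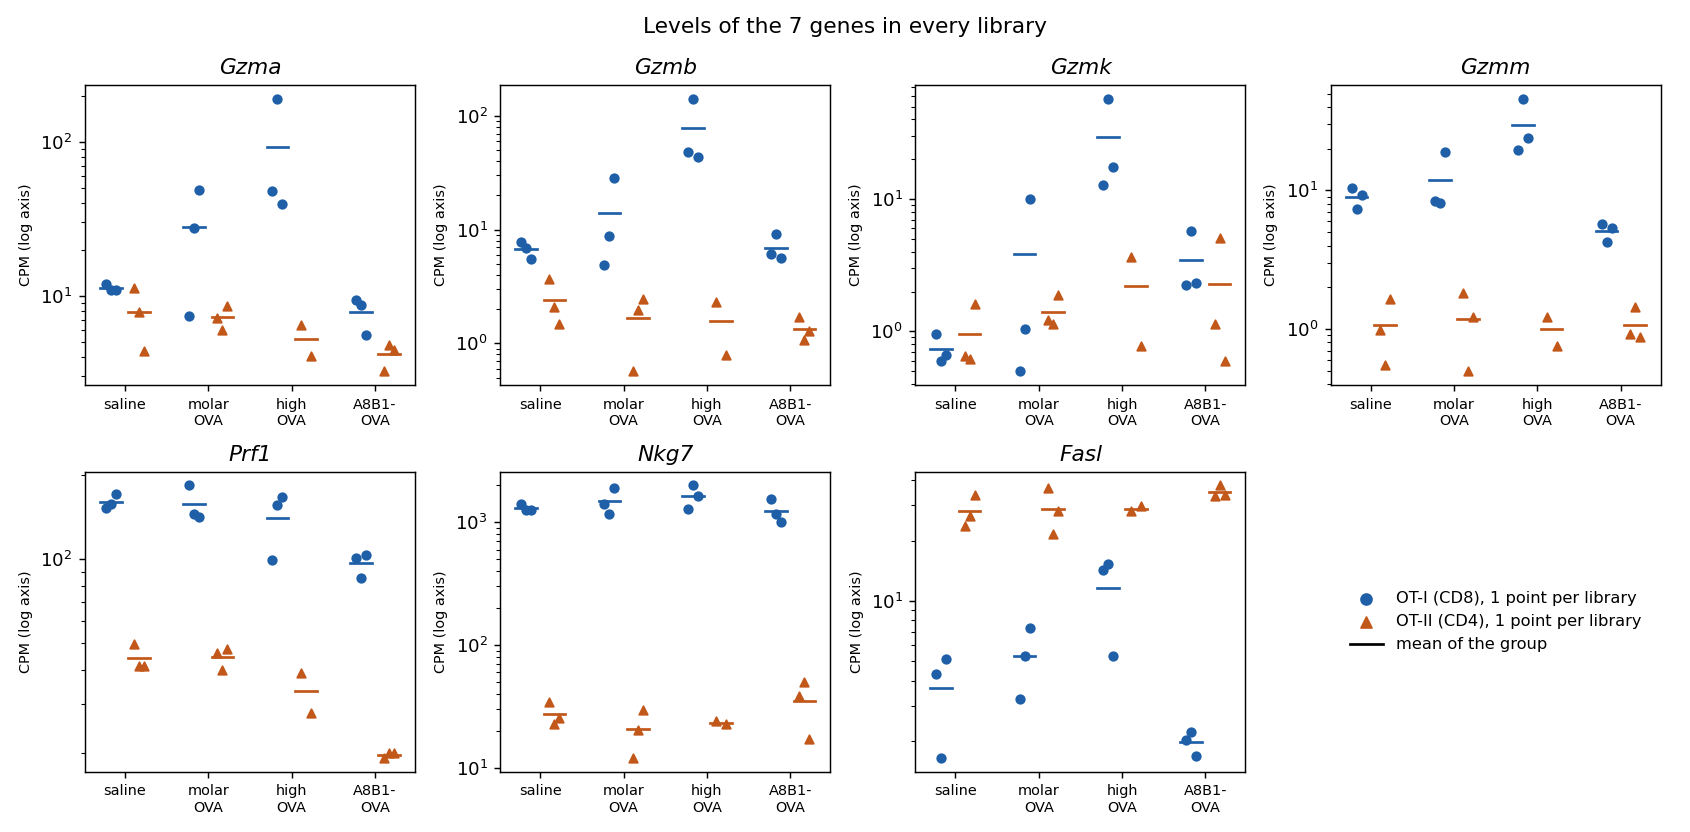
Levels of the 7 genes in CPM on log axes (each panel has its own range), by treatment, for OT-I libraries (circles) and OT-II libraries (triangles); each point is 1 library and each bar the mean of a group. Gzmb, Gzmk and Gzmm are highest in the 3 OT-I libraries with higher-dose OVA (Gzma overlaps molar-equivalent OVA there), the mean of Prf1 is lowest with A8B1-OVA in both cell types, and Fasl is the one gene of the 7 that is higher in OT-II than in OT-I libraries under all 4 treatments.

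The first question was what each dose of free OVA did to these genes in OT-I cells. All 4 granzymes rose with higher-dose OVA against saline, by 3.35-fold to 40.1-fold, and the more abundant Prf1 and Nkg7 did not pass the test. At a Benjamini-Hochberg adjusted p under 0.05 over the 14080 genes tested (edgeR's quasi-likelihood test), 4 of the 7 genes were called higher and 0 lower, where 1.97% of all genes were called higher and 2.41% in either direction. In 5 of the 7 the libraries with higher-dose OVA lay above all saline libraries, which was so for 11.2% of all genes. The median log2 fold change was 1.75 over the 7 genes and 0 over all genes tested. In such bulk samples a larger share of expressing cells and more RNA per cell cannot be told apart.

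Gzmb, the granzyme best known for triggering apoptosis in target cells, stood at 7.77, 6.97 and 5.57 CPM in the 3 saline libraries. With higher-dose OVA its level was 47.7, 142 and 43.6 CPM in replicates 1 to 3. The groups did not overlap, and the lowest library with higher-dose OVA was several times above the highest with saline. The log2 fold change was 3.54 ± 0.60 (SE, n = 3 per group, edgeR adjusted p = 0.01), which is 11.7-fold.

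Gzma, a granzyme with trypsin-like specificity, was at 11.9, 10.9 and 10.9 CPM with saline. It was at 47.8, 192 and 39.7 CPM with higher-dose OVA. Replicate 2 with higher-dose OVA was far above the other 2 libraries of its group, and the groups did not overlap. The log2 fold change was 3.08 ± 0.65 (SE, n = 3 per group, edgeR adjusted p = 0.026).

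Gzmk, the granzyme typical of memory-like CD8 T cells, was low with saline at 0.957, 0.597 and 0.661 CPM (59, 40 and 35 counts). It reached 12.8, 57.5 and 17.5 CPM with higher-dose OVA. Its difference was the widest of the 7 genes, at a log2 fold change of 5.33 ± 1.02 (SE, n = 3 per group, edgeR adjusted p = 0.016), or 40.1-fold.

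Gzmm, a granzyme that cleaves after methionine, was at 10.4, 7.32 and 9.31 CPM with saline and at 19.5, 46.0 and 23.7 CPM with higher-dose OVA. The rise was the smallest of the 4, at 1.75 ± 0.36 on the log2 scale (SE, n = 3 per group, edgeR adjusted p = 0.025). As for the other granzymes, replicate 2 was the highest library.

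Fasl stood at 4.31, 1.64 and 5.10 CPM with saline and at 14.2, 15.3 and 5.33 CPM with higher-dose OVA. Its groups were separated by a narrow gap between the highest saline library and replicate 3 with higher-dose OVA, and the log2 fold change of 1.68 ± 0.46 (SE, n = 3 per group) missed the threshold in edgeR (adjusted p = 0.091) but not in DESeq2 (adjusted p = 0.007). One of the 2 high libraries, replicate 1, is the one with Cd4 at 163 CPM. OT-II libraries, where Cd4 is 539 to 699 CPM, hold 21.6 to 37.8 CPM of Fasl; the part of CD4 RNA in the Fasl level of replicate 1 was not tested. Without replicate 1 the difference of Fasl was 1.51 on the log2 scale (edgeR adjusted p = 0.2).

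Prf1 was at 153, 158 and 171 CPM with saline and at 98.8, 156 and 167 CPM with higher-dose OVA, overlapping ranges (log2 fold change -0.17 ± 0.18, SE, n = 3 per group, edgeR adjusted p = 0.82). Nkg7, at 1420, 1260 and 1270 CPM with saline and 1290, 2000 and 1650 CPM with higher-dose OVA, also overlapped (0.35 ± 0.21, SE, n = 3 per group, edgeR adjusted p = 0.58). Neither gene separated the 6 libraries by treatment.

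Which libraries carry the rise of the granzymes can be read from the sum of the 4. It was 128, 437 and 125 CPM with higher-dose OVA and 31, 25.8 and 26.4 CPM with saline. Without higher-dose OVA replicate 2 the log2 fold changes fell to 2.76 for Gzmb (edgeR adjusted p = 0.045), 1.97 for Gzma (0.13), 4.36 for Gzmk (0.073) and 1.27 for Gzmm (0.13). Without replicate 1, the library with raised Cd4, all 4 remained called, with log2 fold changes of 3.80 for Gzmb, 3.39 for Gzma, 5.68 for Gzmk and 1.97 for Gzmm. Leaving out any 1 saline library also ended the calls of Gzma, Gzmk and Gzmm, and leaving out saline replicate 2 or 3 that of Gzmb, with adjusted p up to 0.13 over these fits. Without all the libraries that stand apart, which leaves 2 libraries in each group, the differences were larger and none was called: 3.91 for Gzmb (adjusted p = 0.051), 3.44 for Gzma (0.11), 5.92 for Gzmk (0.057) and 2.09 for Gzmm (0.051).

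NK cells carry the same granule genes, so their markers were summed over 13 genes in every library. The sum was 26.3 to 31.7 CPM in OT-I libraries with higher-dose OVA and 26.6 to 52.9 CPM with saline, overlapping ranges. The defining marker Ncr1 was at 1.65, 0.744 and 1.88 CPM with higher-dose OVA and 1.09, 1.51 and 1.28 CPM with saline, and Klrb1c (NK1.1) at 2.03, 4.09 and 3.07 CPM against 5.92, 3.79 and 4.46 CPM. The median log2 difference of the 13 genes was -0.22, and that of all genes 0. Dendritic cell markers (8 genes) summed to 73 to 104 CPM with higher-dose OVA and 132 to 153 CPM with saline, with no overlap; 1 of the 8 was called higher and 1 lower. Their part in the granzyme differences was not tested.

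**Figure D2:**
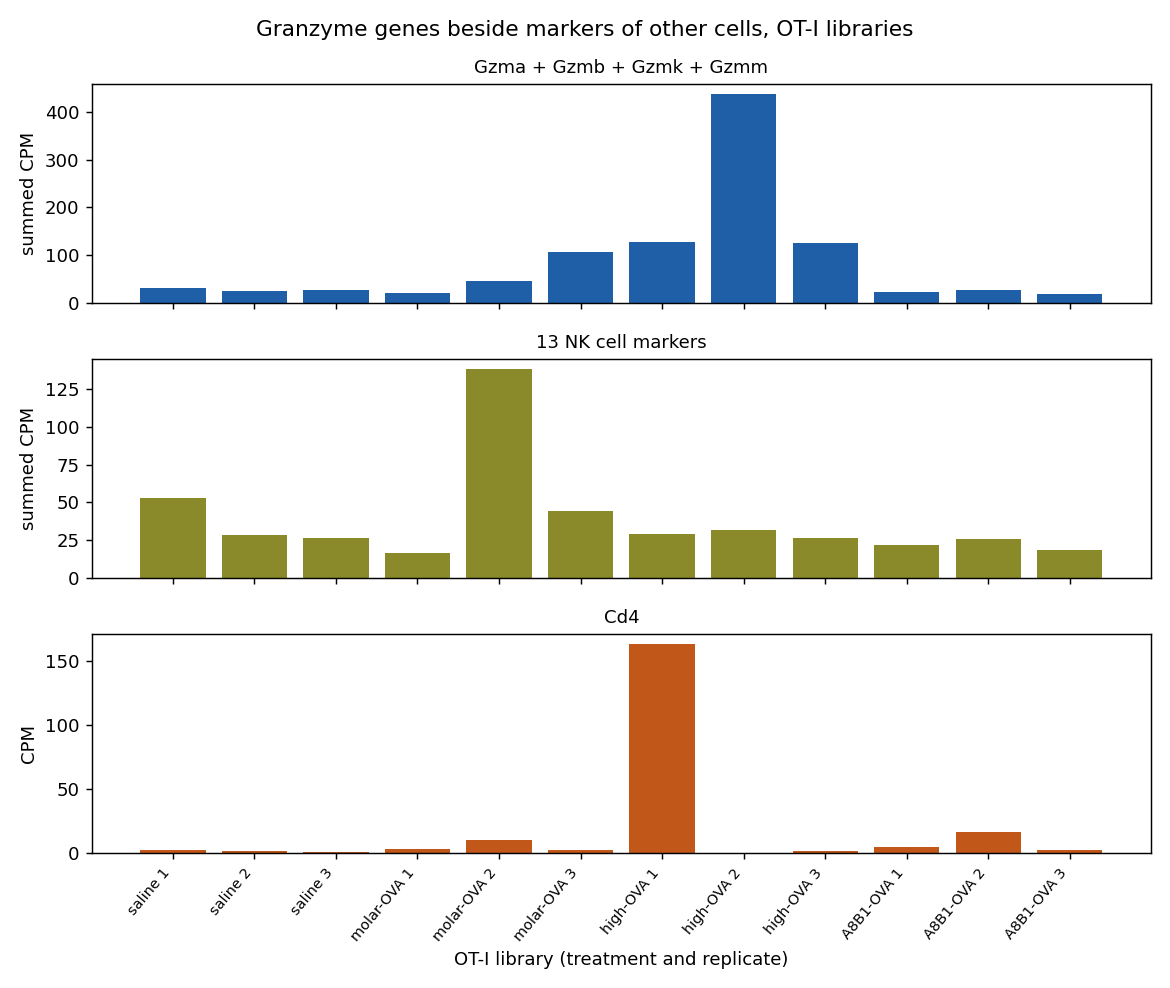
Summed CPM of the 4 granzymes (top), summed CPM of 13 NK cell markers (middle) and CPM of Cd4 (bottom) in each of the 12 OT-I libraries, as bars from 0. The granzyme sum is highest in higher-dose OVA replicate 2 (437 CPM), the NK marker sum in molar-equivalent OVA replicate 2 (138 CPM) and Cd4 in higher-dose OVA replicate 1 (163 CPM), so the 3 maxima fall in different libraries.

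At the molar equivalent, free OVA left the 7 genes without a call against saline. Of the 7 genes 0 were called by edgeR and 0 by DESeq2, and 1 had an unadjusted p under 0.05 in edgeR, as did 1.89% of all genes; of all genes tested 0% were called. The 3 libraries were unlike each other. The granzyme sum was 21.2, 45.5 and 106 CPM in replicates 1 to 3. Replicate 3 held Gzmb at 28.6, Gzma at 48.6, Gzmk at 10.1 and Gzmm at 18.9 CPM, all above the saline libraries. Replicate 1 held Gzmb at 4.92, Gzma at 7.43 and Gzmk at 0.499 CPM, below the saline libraries, and Gzmm at 8.36 CPM, within their range. Replicate 2, with Gzma at 27.5 and Gzmb at 8.82 CPM, is the library with raised markers of NK and other cells; their part in its Gzma level was not tested. Between the 2 doses of free OVA 0 of the 7 genes were called by edgeR (1.04% of all genes were), 5 had an unadjusted p under 0.05 (12.3% of all genes did), and DESeq2 called 2, Gzmb and Gzmm. The log2 differences, higher dose minus molar equivalent, were 2.50 ± 0.58 for Gzmb (edgeR adjusted p = 0.061) and 1.36 ± 0.36 for Gzmm (adjusted p = 0.11).

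A8B1-OVA, the second antigen form in the design, gave another picture in OT-I cells. Gzmb, Gzma, Gzmm and Fasl were lower than with higher-dose OVA, and against saline none of the 4 granzymes passed the test in the main fit, while Prf1 fell. A8B1-OVA and higher-dose OVA differ in both form and dose, and these cannot be told apart in that comparison. Against molar-equivalent OVA, the matched dose, edgeR called Prf1 alone. Against higher-dose OVA 4 of the 7 genes were called lower and 0 higher, where 0.774% of all genes were called lower and 2.41% in either direction, and 5 of the 7 had libraries that did not overlap on the lower side, where 9.21% of all genes did. The median log2 fold change was -2.59 over the 7 genes and -0.02 over all genes. All 7 had an unadjusted p under 0.05 in edgeR, as did 18.9% of all genes, and DESeq2 called 6 of the 7 lower.

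Gzmb was at 6.09, 9.07 and 5.69 CPM with A8B1-OVA, within or near the range of the saline libraries. Gzma was at 9.37, 8.69 and 5.52 CPM, below all its saline libraries (10.9 to 11.9 CPM), without a call (log2 fold change -0.53 ± 0.62, SE, n = 3 per group, edgeR adjusted p = 0.63). Its group mean of 7.86 ± 2.05 CPM (SD, n = 3) stood against 93.1 ± 85.5 CPM with higher-dose OVA. For Gzma the log2 fold change from higher-dose OVA was -3.60 ± 0.67 (SE, n = 3 per group, edgeR adjusted p = 0.019), or 12.2-fold. Gzmm, at 5.69, 4.28 and 5.40 CPM, lay below all saline and all free OVA libraries.

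Fasl had its tightest group with A8B1-OVA, at 2.02, 2.21 and 1.68 CPM. Against higher-dose OVA the log2 fold change was -2.59 ± 0.48 (SE, n = 3 per group, edgeR adjusted p = 0.019), a level 6.03-fold lower. The 3 libraries lay below all 3 with molar-equivalent OVA as well (3.25, 5.30 and 7.30 CPM), where the difference of -1.43 ± 0.47 was not called (adjusted p = 0.069). They overlapped saline, whose replicate 2 was at 1.64 CPM.

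Gzmk differed from the other granzymes in where A8B1-OVA placed it. At 2.23, 5.75 and 2.33 CPM, its 3 libraries were above all 3 saline libraries and below all 3 with higher-dose OVA. Neither difference was called by edgeR: 2.20 ± 0.92 on the log2 scale against saline (adjusted p = 0.15) and -3.13 ± 0.91 against higher-dose OVA (adjusted p = 0.093), although DESeq2 called the second (adjusted p = 0.03). The place of Gzmk below higher-dose OVA therefore has a call from DESeq2 and not from edgeR. Its place above saline was called by neither tool.

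Prf1 was at 101, 85.5 and 103 CPM with A8B1-OVA, below all saline libraries (153, 158 and 171 CPM) and all libraries with molar-equivalent OVA (184, 145 and 142 CPM). It was the 1 gene of the 7 called against saline, with a log2 fold change of -0.75 ± 0.18 (SE, n = 3 per group, edgeR adjusted p = 0.018), a level 1.68-fold lower. Of all genes tested, 4.43% were called lower in that comparison and 11.5% in either direction. Unadjusted edgeR p against saline was under 0.05 for 3 of the 7 genes and for 26.3% of all genes. Beside Prf1 these were Gzmk (0.033, higher) and Gzmm (0.039, lower). DESeq2 called 1 of the 7, and more than Prf1 was called when the fit held only the 2 groups compared. Prf1 was also the 1 gene called by edgeR against molar-equivalent OVA, at -0.71 ± 0.18 (SE, n = 3 per group, edgeR adjusted p = 0.024). In that comparison 4.06% of all genes were called lower and 10.6% in either direction. Of the 7 genes 4 had an unadjusted p under 0.05 in edgeR, as did 26.9% of all genes, and DESeq2 called 3, all lower. Gzma (-1.83 ± 0.63, edgeR adjusted p = 0.082) and Gzmm (-1.21 ± 0.36, edgeR adjusted p = 0.05 after rounding) were lower without an edgeR call. Against higher-dose OVA the ranges of Prf1 touched only in replicate 1 of that group (98.8 CPM), the library with raised Cd4. The difference of Prf1, -0.57 ± 0.18, was not called (edgeR adjusted p = 0.11), and without that library it was -0.77 (adjusted p = 0.041).

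Nkg7 had no edgeR call with A8B1-OVA, and against higher-dose OVA its log2 difference was -0.45 ± 0.21 (edgeR adjusted p = 0.26). With A8B1-OVA it was at 1540, 1160 and 1000 CPM, overlapping saline, with a log2 fold change of -0.10 ± 0.21 (SE, n = 3 per group, edgeR adjusted p = 0.79). In the 6 comparisons between treatments of OT-I cells its adjusted p was never under 0.26.

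Summed markers of other cell types also differed and are given beside these results. Whether their RNA came from such cells was not tested. The summed NK markers were 21.8, 25.6 and 18.3 CPM in the OT-I libraries with A8B1-OVA, below all libraries with higher-dose OVA (26.3 to 31.7 CPM) and with saline (26.6 to 52.9 CPM). The median log2 difference of the 13 NK genes was -0.62 against higher-dose OVA, -0.98 against saline and -1.65 against molar-equivalent OVA, where that of all genes was -0.02 each time. Against molar-equivalent OVA 3 of the 13 NK genes were called lower, where 4.06% of all genes were. The summed NK markers overlapped those of that group, which ranged from 16.4 to 138 CPM. Single defining markers differed in direction: Klrb1c was higher with A8B1-OVA (8.43, 10.7 and 6.81 CPM) than in all libraries with higher-dose OVA or saline, whereas Ncr1 (0.379, 0.776 and 0.819 CPM) was below all saline libraries. Of the 13 genes at most 1, Klrb1b, was at 0 in any of these 9 libraries. Dendritic cell markers summed to 58.1 to 71 CPM with A8B1-OVA. That was below all libraries with higher-dose OVA (73 to 104 CPM), molar-equivalent OVA (121 to 159 CPM) and saline (132 to 153 CPM). Of the 8 genes 1 was called lower in each of the 3 comparisons, and their median log2 difference from saline was -0.22. Clec9a or Cox6a2 was at 0 in each A8B1-OVA library. Itgax, also 1 of the 8, tracked Gzma over the OT-I libraries (r = 0.94). Myeloid markers were at 38.9 to 67.4 CPM against 76.9 to 113 CPM with higher-dose OVA, with no overlap, and overlapped saline (43.4 to 292 CPM). Platelet markers, at 0.318 to 0.763 CPM, were below higher-dose OVA (1.12 to 1.38 CPM) and saline (0.999 to 2.17 CPM), and mast cell and basophil markers, at 2.83 to 4.49 CPM, below molar-equivalent OVA (4.59 to 12.4 CPM). The part of NK, dendritic, myeloid, platelet and mast cell RNA in the differences of Prf1, Fasl and the granzymes was not tested.

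The calls of A8B1-OVA in OT-I cells leaned on single libraries to different degrees. Gzmm against higher-dose OVA (-2.57 ± 0.37, edgeR adjusted p = 0.0059) was called in 11 of 12 fits that each left out 1 library and missed only without A8B1-OVA replicate 2 (adjusted p = 0.052). Gzmb (-3.52 ± 0.60, adjusted p = 0.014) was called in 10 of 12, missing without A8B1-OVA replicate 1 or 2. Gzma was called in 9 of 12, missing without those 2 or without higher-dose OVA replicate 2, and Fasl in 8 of 12, missing without A8B1-OVA replicate 1 or 2 or higher-dose OVA replicate 1 or 2 (adjusted p up to 0.1). Prf1 against saline was called in 8 of 12, missing without A8B1-OVA replicate 1 or 2 or saline replicate 2 or 3 (adjusted p up to 0.11), with log2 fold changes between -0.80 and -0.65. Prf1 against molar-equivalent OVA was called in 9 of 12, missing without A8B1-OVA replicate 1 or 2 or molar-equivalent OVA replicate 1. Without all libraries that stand apart, Gzmb (-3.77, adjusted p = 0.047), Gzmm (-2.80, adjusted p = 0.014) and Prf1 against saline (-0.78, adjusted p = 0.018) kept their calls, and Gzma (-3.92, adjusted p = 0.064) and Fasl (-2.42, adjusted p = 0.1) did not.

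**Figure D3:**
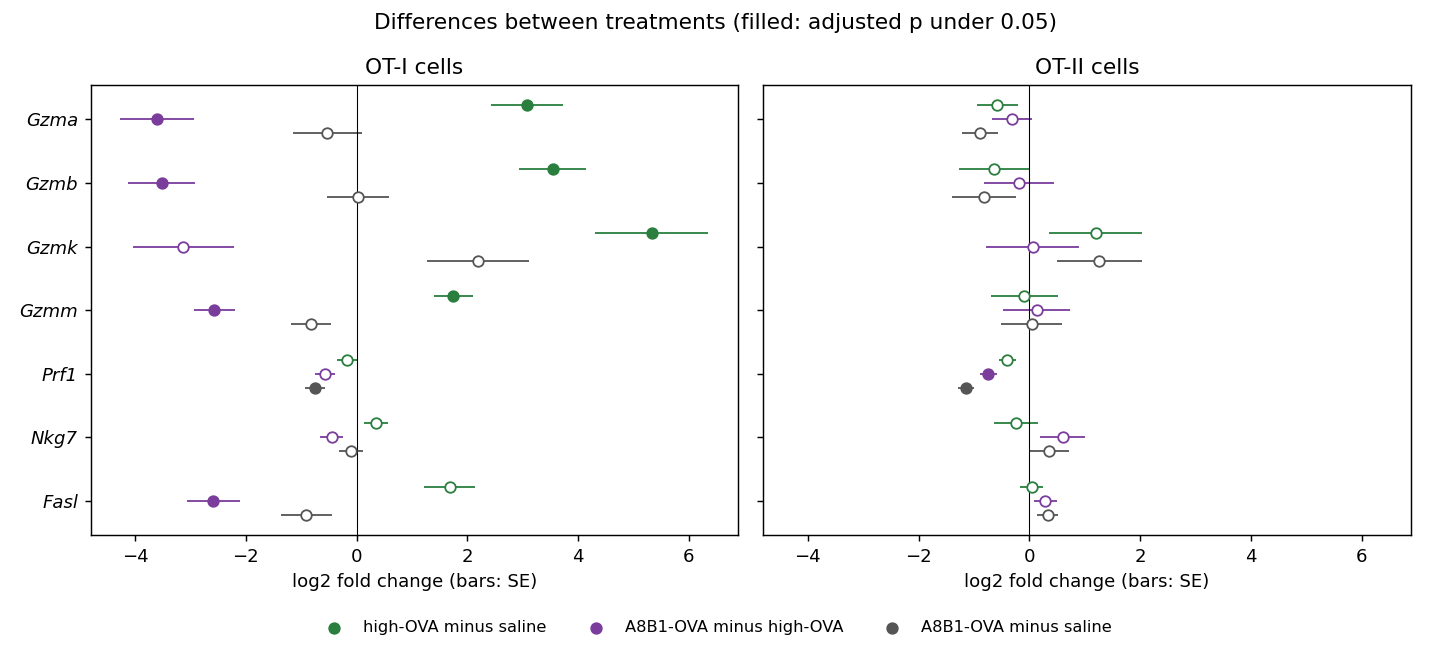
Log2 fold changes with standard errors of the 7 genes in 3 comparisons, in OT-I cells (left) and OT-II cells (right); filled points have an edgeR adjusted p under 0.05. In OT-I cells the granzymes have positive values for higher-dose OVA against saline and negative ones for A8B1-OVA against higher-dose OVA, whereas in OT-II cells the only filled points are those of Prf1 with A8B1-OVA.

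In OT-II cells a single gene of the 7 was called between treatments. Prf1 was at 19.2, 20.1 and 20 CPM with A8B1-OVA. It was at 49.5, 41.3 and 41.3 CPM with saline, at 46.0, 39.9 and 47.4 CPM with molar-equivalent OVA, and at 39.0 and 27.8 CPM in the 2 libraries with higher-dose OVA. All 3 A8B1-OVA libraries lay below the other 8. The log2 fold change was -1.14 ± 0.14 against saline (SE, n = 3 per group, edgeR adjusted p = 0.00065) and -1.16 ± 0.14 against molar-equivalent OVA (SE, n = 3 per group, edgeR adjusted p = 7e-04), levels 2.21-fold and 2.23-fold lower. Of all 14757 genes tested 2.88% and 2.43% were called lower in these comparisons, and 7.28% and 6.36% in either direction. Both calls held in 11 of 11 fits that each left out 1 library. Against higher-dose OVA the difference of Prf1 was -0.74 ± 0.15 (SE, n = 3 and 2, edgeR adjusted p = 0.037), where 0.522% of all genes were called lower and 1.34% in either direction, but it was called in only 2 of 11 such fits (adjusted p up to 0.43): it was lost without any 1 library of either group compared, saline replicate 2 or 3, or molar-equivalent OVA replicate 1 or 3. It also missed without the libraries that stand apart (-0.74, adjusted p = 0.064) and with the replicate number as a block (-0.76, adjusted p = 0.085).

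Several summed markers of other cell types were also lower with A8B1-OVA in OT-II libraries. Whether their RNA came from such cells or from the OT-II cells was not tested. The CD8 lineage genes Cd8a and Cd8b1 summed to 24.8 to 31.1 CPM with A8B1-OVA, below all libraries with saline (46.1 to 59.8 CPM), molar-equivalent OVA (43.7 to 54 CPM) and higher-dose OVA (45.5 to 49.8 CPM). Cd8b1 was called lower in each of the 3 comparisons, against saline at 25.6 and 47.5 CPM (log2 fold change -0.88 ± 0.12, SE, n = 3 per group, edgeR adjusted p = 0.0014), and Cd8a, at 1.68 and 3.44 CPM, was not (adjusted p = 0.36). In OT-I libraries with saline, where Cd8a and Cd8b1 summed to 3300 to 3440 CPM, Prf1 was at 153 to 171 CPM. Neutrophil markers, a list of 7 genes, were at 2.92 to 9.54 CPM with A8B1-OVA against 13 to 246 CPM with saline, 36.9 to 47.1 CPM with molar-equivalent OVA and 28 to 33.3 CPM with higher-dose OVA, again with no overlap, and 4 of the 7 were called lower against saline. Dendritic (27.5 to 42.7 against 43.7 to 51.2 CPM), mast cell and basophil (2.25 to 3.13 against 3.49 to 9.54 CPM) and platelet markers (0.41 to 1.17 against 1.39 to 3.67 CPM) also lay below saline with no overlap. Summed NK markers were 13.2 to 26.2 CPM with A8B1-OVA and 18.2 to 66.6 CPM with saline, overlapping ranges. The part of any of these in the Prf1 difference was not tested.

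The other 6 genes had no call in any of the 6 comparisons of OT-II cells. Gzma was lower with A8B1-OVA than with saline at an unadjusted edgeR p of 0.018 (-0.89 ± 0.33, adjusted p = 0.13). Against molar-equivalent OVA its unadjusted edgeR p was 0.033 (-0.79 ± 0.33, adjusted p = 0.19). Of all genes 21.2% and 20.3% had an unadjusted p under 0.05 in these 2 comparisons. Among the 3 treatments without A8B1-OVA edgeR and DESeq2 called 0 of the 7; Prf1 alone had an unadjusted p under 0.05, with higher-dose OVA against saline and against molar-equivalent OVA, where 5.91% and 5.37% of all genes did (3.91% for molar-equivalent OVA against saline). Of all genes 0.0271%, 0% and 0% were called for higher-dose OVA against saline, higher-dose against molar-equivalent OVA and molar-equivalent OVA against saline. Gzmb ranged from 0.568 to 3.71 CPM over the 11 libraries, with a median of 1.70 CPM, and Gzmm from 0.495 to 1.83 CPM. Gzma ranged from 3.22 to 11.2 CPM, and its highest library, saline replicate 1, is the one with raised myeloid, neutrophil and erythroid genes and an NK marker sum of 66.6 CPM (median of OT-II libraries 24 CPM); the part of these in its Gzma level was not tested. Gzmk was at 1.13, 5.11 and 0.596 CPM with A8B1-OVA, so 1 library was several times above the other 2, and its difference from saline was 1.26 ± 0.77 on the log2 scale (SE, n = 3 per group, edgeR adjusted p = 0.4). Fasl was at 33.6, 37.8 and 33.7 CPM with A8B1-OVA and 23.7, 26.5 and 33.8 CPM with saline (0.33 ± 0.19, SE, n = 3 per group, edgeR adjusted p = 0.34). The A8B1-OVA libraries lay above both with higher-dose OVA (28.1 and 29.7 CPM), without a call (0.29 ± 0.21, SE, n = 3 and 2, edgeR adjusted p = 0.63).

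The 2 cell types were then set side by side. Nkg7, Prf1 and Gzmm were higher in OT-I than in OT-II cells under each of the 4 treatments, and Fasl was lower. With saline 3 of the 7 genes were called higher in OT-I cells and 1 lower, where 15.5% of all 15235 genes were called in either direction. Nkg7 had a mean of 1320 ± 87.3 CPM in OT-I and 27.5 ± 6.22 CPM in OT-II cells (SD, n = 3 per group), a log2 difference of 5.58 ± 0.38 (edgeR adjusted p = 3.2e-09). Prf1 differed by 1.87 ± 0.17 (edgeR adjusted p = 1.4e-07) and Gzmm by 3.09 ± 0.48 (edgeR adjusted p = 9.9e-05). Gzma, Gzmb and Gzmk did not pass with saline; Gzma was at 11.2 ± 0.575 CPM in OT-I and 7.81 ± 3.41 CPM in OT-II cells (SD, n = 3 per group).

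Fasl ran the other way. With saline it had a mean of 3.68 ± 1.81 CPM in OT-I and 28 ± 5.22 CPM in OT-II cells (SD, n = 3 per group), a log2 difference of -2.93 ± 0.39 (edgeR adjusted p = 1.8e-05). The gap was widest with A8B1-OVA, at 1.97 ± 0.268 against 35.0 ± 2.39 CPM (SD, n = 3 per group) and -4.15 ± 0.41 on the log2 scale (edgeR adjusted p = 6.4e-07). It was narrowest with higher-dose OVA, at -1.32 ± 0.40 (edgeR adjusted p = 0.037), a call that was lost without OT-I replicate 3, without either OT-II library and without the libraries that stand apart (-1.45, adjusted p = 0.071), and with the replicate number as a block (-1.31, adjusted p = 0.057).

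With higher-dose OVA all 6 granule genes were called higher in OT-I cells and Fasl lower, where 10.1% of all genes were called. The log2 differences of Gzmb, Gzma, Gzmk and Gzmm were 5.62, 4.15, 3.72 and 4.89. The call of Gzmk (adjusted p = 0.043) held in 14 of 23 fits that each left out 1 library, and was lost without, among others, OT-I higher-dose OVA replicate 2 or 3 or either OT-II library of that treatment (adjusted p up to 0.29). With A8B1-OVA, Gzmb (2.36 ± 0.62, edgeR adjusted p = 0.01) and Gzmm (2.25 ± 0.46, edgeR adjusted p = 0.0017) were higher in OT-I cells, and Gzma and Gzmk did not pass; 20.6% of all genes were called. With molar-equivalent OVA 5 genes were called higher and Fasl lower (16% of all genes were called), among them Gzma at 1.94 ± 0.55, whose call was lost without the libraries that stand apart (2.08, adjusted p = 0.07) and without OT-I replicate 3 or OT-II replicate 1 or 2 of that treatment.

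Whether a treatment acted differently in the 2 cell types was tested as an interaction in the joint fit. Of the 7 genes edgeR called 0 in each of the 6 such contrasts. For higher-dose OVA against saline 5 of the 7 had an unadjusted p under 0.05, where 5.07% of all genes did, with differences between the responses of 4.14 ± 0.94 for Gzmb (adjusted p = 0.18) and 3.63 ± 0.85 for Gzma (adjusted p = 0.19). DESeq2 called both, with adjusted p of 0.0083 for Gzmb and 0.015 for Gzma. For A8B1-OVA against higher-dose OVA 6 of the 7 had an unadjusted p under 0.05 (5.16% of all genes did) and DESeq2 called 2: Fasl at -2.86 (adjusted p = 0.00053) and Gzmm at -2.67 (adjusted p = 0.033). In edgeR the same differences were -2.84 ± 0.57 for Fasl (adjusted p = 0.11) and -2.65 ± 0.69 for Gzmm (adjusted p = 0.47). For A8B1-OVA against saline 1 of the 7 had an unadjusted p under 0.05 (9.24% of all genes did), and DESeq2 called 0; the difference of Prf1, which fell in both cell types, was 0.42 ± 0.23 (edgeR adjusted p = 0.64). For A8B1-OVA against molar-equivalent OVA 2 of the 7, for the 2 doses of OVA 3 and for molar-equivalent OVA against saline 0 had an unadjusted p under 0.05, where 8.59%, 5.09% and 2.76% of all genes did, and DESeq2 called 0. Over all 15235 genes edgeR called 0.00656% in each of the first 2 contrasts, 0.433% for A8B1-OVA against saline, 0.282% against molar-equivalent OVA, and 0% in the other 2.

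To rank the 7 genes among themselves, counts were divided by transcript length and scaled to a total of 1 M per library (TPM, transcripts in 1 M). Nkg7 ranked first in 12 of 12 OT-I libraries, with group means of 2200 to 3220 TPM. In OT-I cells with saline Prf1 followed at 112 ± 9.50 TPM, then Gzma at 18.5 ± 0.563, Gzmm at 10.8 ± 1.76, Gzmb at 7.26 ± 1.01, Fasl at 4.87 ± 2.44 and Gzmk at 0.975 ± 0.231 TPM (SD, n = 3). Of these neighbours only Gzmb and Fasl overlapped. With higher-dose OVA, Gzma at 150 ± 134, Prf1 at 97.2 ± 24.2 and Gzmb at 82.1 ± 56.1 TPM overlapped each other, as did Gzmk at 38.0 ± 30.8 and Gzmm at 35.2 ± 15.7 TPM (SD, n = 3). These 2 sets overlapped as well: Gzmk reached 73.4 TPM and Gzmm 53.2 TPM, above the lowest Gzmb library (47.2 TPM). With saline, by contrast, Prf1 lay above each granzyme in all 3 libraries. With A8B1-OVA, Prf1 at 61.9 ± 12.1 TPM was again above Gzma at 11.7 ± 1.82 TPM, and Gzmb (6.80 ± 1.56), Gzmm (5.66 ± 1.16) and Gzmk (4.12 ± 2.22) overlapped in turn (SD, n = 3), with Fasl at 2.36 ± 0.162 TPM overlapping Gzmk.

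In OT-II cells the order was another one. Nkg7 ranked first in 9 of 11 libraries and Fasl in the other 2, and Prf1 ranked 2 or 3. With saline the means were 57.8 ± 8.87 TPM for Nkg7, 39.9 ± 8.76 for Fasl and 32.8 ± 1.49 for Prf1, of which Fasl and Prf1 overlapped, then 13.7 ± 5.35 for Gzma, 2.75 ± 1.13 for Gzmb, 1.38 ± 0.82 for Gzmk and 1.37 ± 0.718 for Gzmm (SD, n = 3), of which the last 3 overlapped.

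The way the genes varied together over the 12 OT-I libraries is given as Pearson's r of log2 CPM, a description of libraries that share 4 treatments. Gzma, Gzmb and Gzmm tracked each other (r = 0.95 for Gzma with Gzmb, 0.92 for Gzma with Gzmm, 0.91 for Gzmb with Gzmm), and Gzmk tracked Gzmb most closely (r = 0.92). Fasl tracked Gzma (r = 0.88). The r of Prf1 was lower, at 0.43 with Gzmm, 0.23 with Gzma, 0.08 with Gzmb and -0.23 with Gzmk. Among 9357 genes the closest to Gzma was Ccl5 (r = 0.98), to Gzmb Klrc1 (r = 0.96), to Gzmk S100a6 (r = 0.97), to Gzmm Wdr95 (r = 0.94), to Prf1 Fam234a (r = 0.96), to Nkg7 Gemin7 (r = 0.94) and to Fasl Gzma itself. Over the 11 OT-II libraries the closest to Prf1 was Sit1 (r = 0.97), followed by Pdlim4 (r = 0.96), Wnt5b and Ly6c1, and the r of Gzma was 0.49 with Gzmb and 0.79 with Prf1.

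Of the 6 other granzyme genes in the table, Gzmc alone was counted in all 23 libraries, with at most 102 counts in a library (1.49 CPM), and was the 1 gene of the 6 that passed the filter. Gzmf was at 10 counts or fewer in each library, and Gzmd, Gzme, Gzmg and Gzmn were at 0 in all 23. Gzmc was highest in OT-II cells with A8B1-OVA (1.49, 1.47 and 0.993 CPM) and with higher-dose OVA (1.38 and 0.758 CPM). Its 1 call in OT-II cells was A8B1-OVA against molar-equivalent OVA (log2 fold change 2.53, edgeR adjusted p = 0.047).

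Genes that load, process and release granules were followed through a list of 22 tested genes. Against saline, 1 rose and 0 fell in OT-I cells with higher-dose OVA by edgeR: Serpinb6b, an inhibitor of the serpin family, from 21.9 to 57.8 CPM (log2 fold change 1.42 ± 0.26, edgeR adjusted p = 0.012); 2.41% of all genes were called. In the fit without the libraries that stand apart 2 rose, Serpinb6b among them. Of the 22 genes, 6 had an unadjusted p under 0.05, and DESeq2 called 3 higher and 1 lower. The granule proteoglycan gene Srgn (300 against 293 CPM), the granzyme-activating protease gene Ctsc (283 against 290 CPM) and the release factor gene Unc13d (285 against 229 CPM) did not pass. The median of the list was 0.15 and that of all genes 0. With A8B1-OVA 3 rose and 0 fell against saline in OT-I cells: Serpinb6b (1.27), the syntaxin gene Stx11 (1.47) and Igf2r (0.84), which encodes a receptor for mannose 6-phosphate. These 3 of 22 stand beside 11.5% of all genes called, a similar share. Igf2r lost its call without the libraries that stand apart (0.76, adjusted p = 0.085). Between A8B1-OVA and higher-dose OVA edgeR called 0 of the 22 (4 had an unadjusted p under 0.05, and DESeq2 called 1 lower). In OT-II cells with A8B1-OVA against saline Igf2r rose (0.72) and Ctsw, a cathepsin of cytotoxic cells, fell (-0.67), where 7.28% of all genes were called in either direction. Both calls were lost without the libraries that stand apart, Igf2r at 0.63 (adjusted p = 0.054) and Ctsw at -0.62 (adjusted p = 0.061). Between the cell types with saline, 6 of the 22 were higher in OT-I cells and 1 lower, where 15.5% of all genes were called (5 and 1 without the libraries that stand apart); Ctsw was at 836 CPM in OT-I and 32.7 CPM in OT-II cells, Cst7, an inhibitor of cathepsins, at 156 and 22.1 CPM, and Ctsc at 290 and 143 CPM.

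Regulators of the cytotoxic programme were read from a list of 26 tested genes. With higher-dose OVA 6 rose and 0 fell against saline in OT-I cells, with a list median of 0.36 against 0 for all genes, of which 2.41% were called. Without the libraries that stand apart 5 of the 6 kept their call, and Il12rb1 did not (1.07, adjusted p = 0.056). Tbx21, which encodes T-bet, a T-box factor that drives Gzmb and Ifng, rose from 44.3 ± 5.59 to 202 ± 61.0 CPM (SD, n = 3 per group), a log2 fold change of 2.21 ± 0.32 (edgeR adjusted p = 0.0045). Its relative Eomes rose by 0.92 ± 0.19 (edgeR adjusted p = 0.026), Irf4, induced by T cell receptor signals, by 1.32 ± 0.18 (edgeR adjusted p = 0.0042), and Il2rb, the interleukin 2 and 15 receptor beta chain, by 1.11 ± 0.19 (edgeR adjusted p = 0.01).

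With A8B1-OVA 7 of the 26 regulators rose and 3 fell against saline in OT-I cells, in libraries where none of the 4 granzymes was called in the main fit. Irf4 rose by 1.85 ± 0.19 (edgeR adjusted p = 9.2e-05), Id3, associated with memory cells, by 0.94 ± 0.18 (edgeR adjusted p = 0.0049), and Id2, associated with effector cells, fell by 0.88 on the log2 scale (edgeR adjusted p = 0.0056). Eomes (0.79, edgeR adjusted p = 0.02) and Tbx21 (1.06, edgeR adjusted p = 0.041), both named after their values were seen, rose as well; Tbx21 was at 92.8 ± 12.4 CPM (SD, n = 3). Of all genes 11.5% were called in that comparison. With the 5 libraries that stand apart left out 5 rose and 1 fell, all among the 10, and Tbx21 (1.00, adjusted p = 0.11), Nfil3, Stat5a and Zfp683 were not called. Against higher-dose OVA 2 of the 26 were called, both lower, where 0.774% of all genes were: Prdm1, which encodes Blimp-1, at 0.718 against 5.81 CPM (-3.05 ± 0.61, edgeR adjusted p = 0.025), and Id2 at 69.1 against 138 CPM (-1.03 ± 0.17, edgeR adjusted p = 0.012). Prdm1 kept its call without the libraries that stand apart (-3.04, adjusted p = 0.026) and Id2 did not (-1.04, adjusted p = 0.072).

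In OT-II cells 7 regulators rose and 2 fell with A8B1-OVA against saline, where 7.28% of all genes were called. Without the libraries that stand apart 4 rose and 2 fell, all among the 9, and Id3, Irf4 and Stat4 were not called. Eomes rose from 3.54 ± 1.74 to 111 ± 25.6 CPM (SD, n = 3 per group), a log2 fold change of 5.00 ± 0.42 (edgeR adjusted p = 5.7e-05), to a level like that of OT-I cells under the same treatment (117 ± 2.79 CPM, SD, n = 3). In those same libraries Gzmb was at 1.35 ± 0.318 CPM and Prf1 at 19.8 ± 0.499 CPM (SD, n = 3). Stat5a rose by 0.86 ± 0.11 (edgeR adjusted p = 0.00077). Prdm1 (-1.67 ± 0.23, edgeR adjusted p = 0.0012) and Runx3 (-0.71 ± 0.10, edgeR adjusted p = 0.0015), a factor of the CD8 lineage, fell. Tbx21 was at 5.53 CPM with A8B1-OVA and 8.69 CPM with saline and did not pass (edgeR adjusted p = 0.4).

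**Figure D4:**
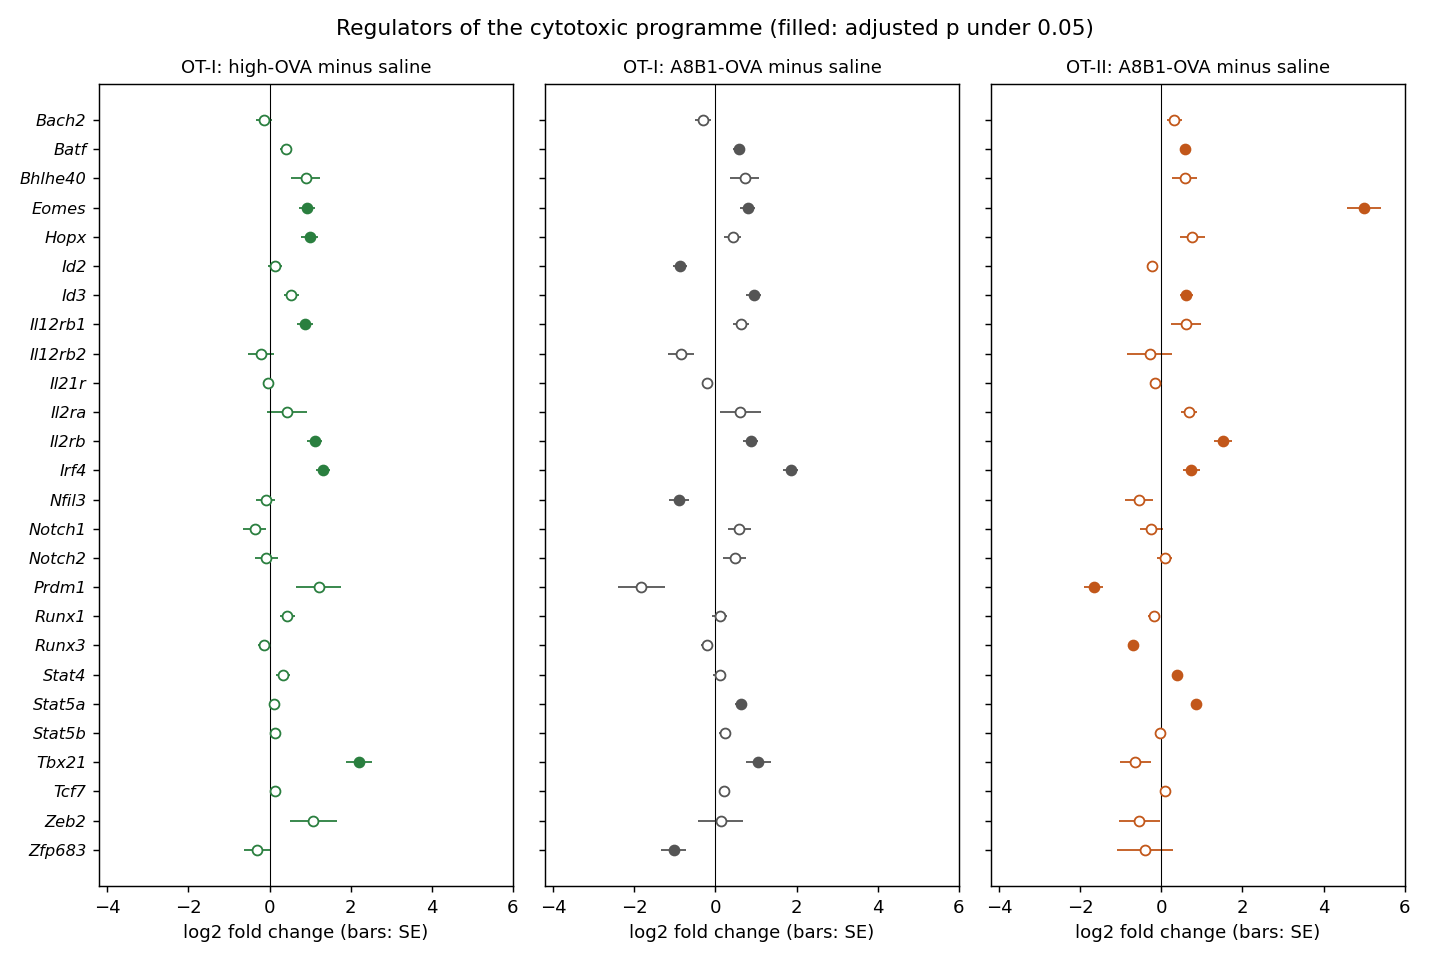
Log2 fold changes with standard errors of the 26 regulators in 3 comparisons with saline; filled points have an edgeR adjusted p under 0.05. Tbx21 is the farthest to the right for higher-dose OVA in OT-I cells (2.21), Irf4 for A8B1-OVA in OT-I cells (1.85) and Eomes for A8B1-OVA in OT-II cells (5.00).

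Effector surface and cytokine genes were read from a list of 19 tested genes. With higher-dose OVA 6 rose and 0 fell against saline in OT-I cells, among them the chemokine receptor Cxcr3 (2.27 ± 0.25, edgeR adjusted p = 0.0014), the activating receptor Klrk1 (3.28 ± 0.49, edgeR adjusted p = 0.0051), Cd44 (1.40) and the integrin Itga4 (1.53). The list median was 0.71 against 0 for all genes, of which 2.41% were called. Without the libraries that stand apart 4 rose, 3 of them among the 6, and Itga4 (1.55, adjusted p = 0.056), Klrc1 and Ifng were not called. Between A8B1-OVA and higher-dose OVA 3 were higher with A8B1-OVA and 10 lower, where 2.41% of all genes were called, 0.774% lower. The chemokines Xcl1, at 147 against 12.6 CPM (3.51 ± 0.33, edgeR adjusted p = 0.00033), and Ccl4, at 85.2 against 11.4 CPM (2.87 ± 0.35, edgeR adjusted p = 0.0017), were higher. Ccl5, at 56.6 against 302 CPM (-2.45 ± 0.48, edgeR adjusted p = 0.024), and the terminal differentiation marker Klrg1 (-2.81 ± 0.53, edgeR adjusted p = 0.02) were lower. Without the libraries that stand apart 2 remained higher, Xcl1 and Ccl4, and 1 lower, Il18rap (-1.27, adjusted p = 0.026); Ccl5 (-2.69, adjusted p = 0.072) and Klrg1 (-3.04, adjusted p = 0.052) were not called. Against saline 6 rose and 2 fell with A8B1-OVA, led by Xcl1 (3.56), Ccl4 (3.06) and Crtam (1.56) among the higher and by Il18r1 (-1.38) among the lower, beside 11.5% of all genes. With those libraries left out 5 rose and 2 fell, and Ccl3 was not called (2.40, adjusted p = 0.07).

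The receptor of Fas ligand and other genes of death receptor signalling were read as well. Fas itself was at 45.5 CPM with saline, 55.2 with higher-dose OVA and 47.4 with A8B1-OVA in OT-I cells, with no call. In OT-II cells with A8B1-OVA against saline the tumour necrosis factor receptor gene Tnfrsf1b (0.62, edgeR adjusted p = 0.0032) and Lta, which encodes lymphotoxin alpha (0.56, edgeR adjusted p = 0.024), rose. Tnfrsf1b kept its call without the libraries that stand apart (0.72, adjusted p = 0.0056) and Lta did not (0.50, adjusted p = 0.1).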

How the data were processed

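RNA of sorted OT-I and OT-II cells was converted to cDNA with the SmartSeq protocol, per the labels' protocols. The authors deposited 1 table of estimated counts per gene, made with kallisto 0.46.1 on GRCm38, per the submitters' processing notes; every value in it is whole, and no rounding step or library strand is recorded there. Groups follow the labels. Nothing says more of the replicates than that each pools 3 mice, so p-values measure the spread between these libraries, which may be partly technical. Same-numbered libraries had a median r of deviations of -0.01 in OT-I (2 of 18 pairs over 0.1) and 0 in OT-II (0 of 15). Between OT-I and OT-II of the same treatment it was 0.13 (6 of 11 over 0.1), and -0.02 in other pairs. Not every pair was over 0.1, and no block was used in the main fits. Pairs of OT-I and OT-II libraries of the same treatment and number were not modelled in the contrasts between cell types.

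OT-I and OT-II libraries were fitted separately, and contrasts between cell types on all 23 libraries. Version 4.0.16 of edgeR ran under R 4.3.3: genes passed filterByExpr (minimum count 10, minimum total 15), libraries were scaled by TMM, and quasi-likelihood p-values were adjusted by Benjamini-Hochberg over all genes tested. CPM use TMM factors over all libraries; log2 values for r have a prior count of 2; TPM use mean GENCODE M21 transcript lengths, which 21709 genes have. DESeq2 1.42.0, other scalings, no filter, other sets of libraries, the block and leaving out each library were tried. The procedure was also run on simulated data, and its rates of recovery and false calls there are not reported here. Members and lists were chosen with earlier results of these data known. From each list up to 4 called genes with the lowest adjusted p were named, plus genes given as background and genes named after their values were seen where a call was lost; likeness took the 5 highest r among genes of at least 5 CPM. Sequences are from RefSeq. The death receptor list is an exception: some of its genes are not reported here, so the genes named from it do not follow the rule, and it has no count.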

Additional observations from a re-analysis of the deposited data

How the results depend on the processing

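Of 154 values (7 genes in 22 contrasts), RLE size factors changed no call, library totals 1, no filter on low counts 2 and DESeq2 11, all towards a call. None of these, nor any fit that left out a library, reversed a called direction. Over the 6 OT-I comparisons edgeR made 10 calls and DESeq2 17; over the 6 differences between the responses 0 and 4. With only the 2 groups compared in the fit, 3 OT-I genes in place of 1 were called between A8B1-OVA and saline. Without the 5 libraries that stand apart, an alternative added after the data were seen, calls went from 4 to 2 for A8B1-OVA against higher-dose OVA, from 4 to 0 for higher-dose OVA against saline and from 10 to 5 over the 6 OT-I comparisons. The cause was not tested; these fits hold fewer libraries.

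Leaving out each library in turn gave, in OT-I cells, 0 to 2 calls for A8B1-OVA against saline, 0 to 5 against higher-dose OVA, 0 to 5 for higher-dose OVA against saline, 4 to 15 over the 6 OT-I comparisons, 1 to 2 for A8B1-OVA against saline in OT-II cells, 2 to 3 over the 6 OT-II comparisons, 20 to 22 over the contrasts between cell types and 0 to 1 over the differences between the responses.

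Replicate numbers do not pair these samples by any label. With the replicate block 3 of 154 values lost their call: Gzma in OT-I cells for higher-dose OVA against saline (2.84, adjusted p = 0.055), Prf1 in OT-II cells against higher-dose OVA (-0.76) and Fasl between cell types with higher-dose OVA (-1.31).

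Over all genes, 339 were called in OT-I cells for higher-dose OVA against saline, 720 by DESeq2 and 128 without the libraries that stand apart. For A8B1-OVA against higher-dose OVA the counts were 339, 1180 and 62. The granzyme differences rest on 2 to 3 libraries a group and on levels that vary several-fold within the higher-dose group, and Gzmk and Gzmm in OT-II cells on 25 to 305 counts a library.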
